A study of Mus musculus with 2 samples.

Results

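The Max network is a family of transcription factors that act as dimers with the small partner protein Max. The genes described here are Myc, Max, Mxd1, Mxd3, Mxd4, Mxi1, Mnt and Mga, 8 of the 22088 genes that the array annotation names with 1 symbol. The family was chosen by the measured difference of Myc, which earlier work on these values had placed among the genes with the lowest difference, so the value of Myc is given as a description. Each gene was represented by its probe set with the highest mean signal over both arrays, which affected Mxi1 alone, since it has 2 probe sets.

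The RNA came from macrophages grown from C57BL/6J mouse bone marrow, kept for 7 days with L929 cell supernatant as a source of macrophage growth factor. There was 1 array of Oasl1-/- cells and 1 array of wild-type cells, both exposed to 10 µg/ml of the viral RNA mimic poly(I:C) for 12 h. Each array was hybridised with RNA of fractions 9 to 11 out of 16 from a sucrose gradient, the fractions that hold mRNA loaded with ribosomes. The labels give neither the number nor the age of the mice, nor the part of Oasl1 that was deleted, and no untreated cells were analysed here. With 1 array per genotype there is no replicate check and no test, and every value below describes these arrays.

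Myc binds DNA as a dimer with Max at the E-box, a short palindromic site, and activates genes of ribosome production, nucleotide synthesis and the cell cycle. Mxd1, Mxd3, Mxd4, Mxi1 and Mnt pair with Max at the same site and recruit the Sin3 corepressor with histone deacetylases, so they oppose Myc at shared genes. Mga is a large Max partner that also carries a T-box DNA-binding domain and belongs to a Polycomb complex. In macrophages Myc is known as an early target of macrophage growth factor, and Mxd1 as a gene that is switched on when myeloid cells stop dividing and differentiate.

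Signals are RMA values on the log2 scale, and differences are Oasl1-/- minus wild-type. A gene counted as past the floor when the higher of its signals was at least 7, which 7835 genes were. Background was gauged by 5222 intron control probe sets, and the central 95% of them reached up to 7.34 on the Oasl1-/- array and 7.13 on the wild-type array. The median difference of the genes past the floor was -0.09, so a difference relative to the median gene is 0.09 higher than the deposited one. Oasl1 had a signal of 9.14 in Oasl1-/- cells and 10.70 in wild-type cells, a difference of -1.57. All 8 measured macrophage markers were past the floor, at 8.99 to 12.78 in Oasl1-/- cells and 8.40 to 12.77 in wild-type cells, and 0 of the 25 markers of T, B, NK, dendritic, erythroid and fibroblast cells and neutrophils were. The brightest of these 25 was the fibroblast collagen gene Col1a1, at 6.94 in Oasl1-/- cells and 6.56 in wild-type cells. The polysomal signal combines the amount of an mRNA with the share of it on ribosomes, and in these bulk cultures fewer cells that express a gene and less of its RNA per cell cannot be told apart.

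The E-box in its strongest form is the sequence CACGTG, which is its own reverse complement, so a search of 1 strand covers both. RefSeq promoter windows of 300 bases (250 before the start site to 50 after it, assembly GRCm38.p6) were matched for 7 of the 8 genes, all but Myc. The motif occurred in the windows of Max, Mxd4 and Mnt, which are 3 of the 6 members past the floor with a window. By the same count per gene, 13.1% of the 6152 genes past the floor with a window held it. Per window the motif was in 7.15% of the 32851 windows of the whole table. It was not found in the windows of Mxd1, Mxd3, Mga or in any of the 3 windows of Mxi1. The sites of these family members are shown because they are the places where the network could bind its own genes, and that of Tyms, thymidylate synthase, because of the 6 Myc-activated genes described below that were at least 2-fold lower, 5 had a window and it was the 1 of these with the motif. Srm, the other of the 6, was not searched. Each line reads 5′ to 3′ on the strand of the gene, with the motif in capitals. A match describes these letters and is not a measured binding site.
Max, chr12:76962219-76962278, minus strand: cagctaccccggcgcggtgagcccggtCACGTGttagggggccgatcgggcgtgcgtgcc
Mxd4, chr5:34187897-34187956, minus strand: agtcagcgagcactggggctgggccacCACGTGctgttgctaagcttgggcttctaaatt
Mnt, chr11:74830774-74830833, plus strand: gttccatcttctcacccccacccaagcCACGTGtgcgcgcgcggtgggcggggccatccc
Tyms, chr5:30073654-30073713, minus strand: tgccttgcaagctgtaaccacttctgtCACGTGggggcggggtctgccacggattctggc
The motif begins 3 bases before the annotated start site in Max, 219 in Mxd4, 123 in Mnt and 61 in Tyms, so that of Max spans the start site itself.

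Myc was dimmer in Oasl1-/- cells than in wild-type cells. Its Oasl1-/- signal was under the floor, so the size of that difference is not settled. Mxd1, an antagonist of Myc, was brighter, but within the central 95% of genes of like signal. The shared partner Max was level, and the remaining antagonists and Mga were slightly lower, with Mxd3 below the floor on both arrays. Of the 7 genes past the floor, 1 (Myc) was at least 2-fold lower, against 0.651% of all genes past the floor, and 0 were at least 2-fold higher, against 1.57%. At 1.5-fold, 1 was lower (Myc) and 1 higher (Mxd1), against 6.28% and 5.27% of all genes. In all 6 of the 8 were lower by some amount, Mxd3 among them, and 2 were higher. Of all genes past the floor, a set that leaves out Mxd3, 60.6% were lower and 39.1% higher. Because the family was picked for the value of Myc, nothing is read from the count of lower genes.

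**Figure D1:**
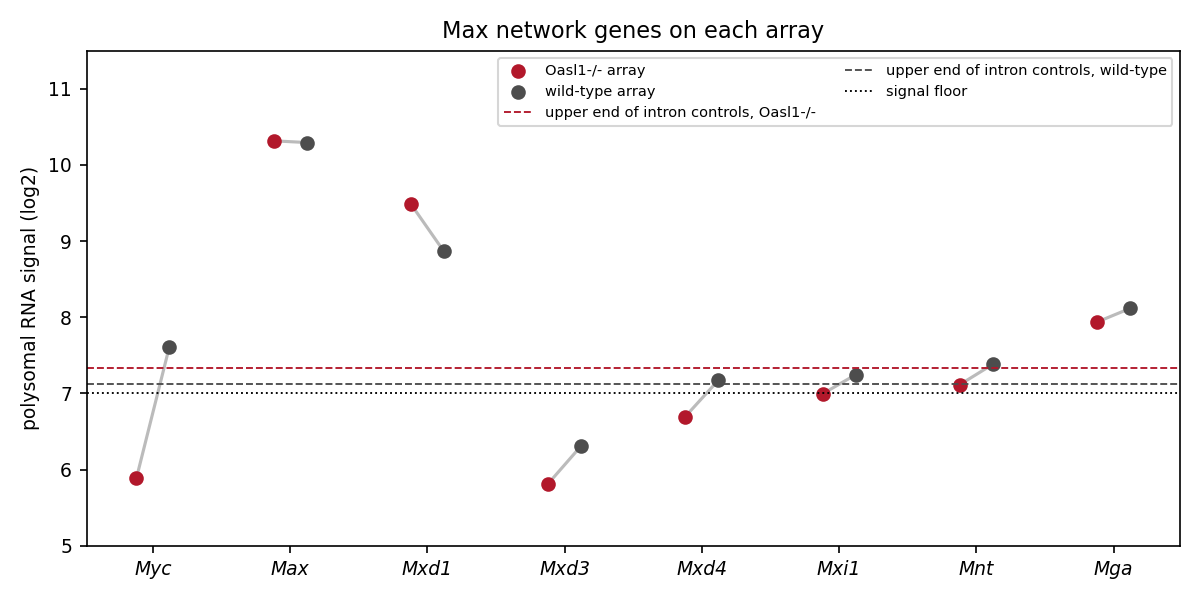
Polysomal RNA signal on the log2 scale (vertical axis) of the 8 Max network genes on the Oasl1-/- array (red) and the wild-type array (grey), 1 value each, so no error bars are drawn. Dashed lines mark where the central 95% of intron controls ended on each array (7.34 on Oasl1-/- and 7.13 on wild-type) and the dotted line the floor of 7. Myc lies below the lines in Oasl1-/- cells at 5.88 and above them in wild-type cells at 7.61.

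Myc is measured by 25 probes on the plus strand of chromosome 15, from 61816896 to 61821916 (coordinates of the deposited table, build NCBIM37). Its signal was 5.88 in Oasl1-/- cells and 7.61 in wild-type cells. The difference of -1.73, or 3.31-fold lower, left 30.2% of the wild-type signal. This was the second lowest difference of the 7835 genes past the floor, and the lowest of the 243 genes past the floor that the array annotation lists under transcription factor activity. The term is not a full list of such factors, since only 4 of the members past the floor carry it. Those 243 genes had a median of -0.13, with 2 at least 2-fold lower and 3 at least 2-fold higher. Of all genes past the floor 0.651% and 1.57% were. E2f6, a repressor of the E2F family that shares a Polycomb complex with Mga, was the other one at least 2-fold lower. Named after its value was seen, it had 6.90 in Oasl1-/- cells, under the floor, and 7.92 in wild-type cells, a difference of -1.02. With that Oasl1-/- signal set to 7, E2f6 was under 2-fold lower.

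The Oasl1-/- signal of Myc exceeded 91.6% of the intron controls on its array, and the wild-type signal exceeded 98.2% of those on the other. The Oasl1-/- signal thus lay within the range of background, and the size of the difference is not settled. With the Oasl1-/- signal set at the floor of 7 the difference was -0.61, or 1.52-fold lower, and so under 2-fold. With it set at 7.34, where the central 95% of intron controls ended on that array, the difference was -0.27, or 1.21-fold lower. With all signals below 7 set to 7, 0.37% of all genes past the floor were at least 2-fold lower. The long noncoding gene next to Myc, Pvt1 (chromosome 15, 61869541 to 62074117), added after the values were seen, was below the floor on both arrays, at 4.55 in Oasl1-/- cells and 4.66 in wild-type cells.

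Max, the dimer partner that the other members share, is measured by 29 probes at chromosome 12, 78038256 to 78063172, on the minus strand. Its signal was 10.32 in Oasl1-/- cells and 10.29 in wild-type cells, a difference of 0.02. It was level to within 1.02-fold, and 5.35% of the genes past the floor had a smaller absolute difference.

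The 4 Mxd genes (Mxd1, Mxd3, Mxd4 and Mxi1) encode repressors that compete with Myc for Max. Mxd1 is measured by 26 probes at chromosome 6, 86599825 to 86619107, on the minus strand. Its signal was 9.49 in Oasl1-/- cells and 8.87 in wild-type cells, both well above the intron controls. The difference was 0.62, or 1.54-fold higher, and 362nd when all genes past the floor are ranked from the highest difference. Among 1555 genes with a mean signal of 9 to 10 the central 95% ran from -0.69 to 0.90, which includes Mxd1.

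The other Mxd genes were below the floor in Oasl1-/- cells. Mxd4, which is associated with differentiated cells, had a signal of 6.70 in Oasl1-/- cells and 7.17 in wild-type cells (33 probes, chromosome 5, 34518613 to 34530359, minus strand), a difference of -0.48. Mxi1 had a signal of 6.99 in Oasl1-/- cells and 7.24 in wild-type cells (48 probes, chromosome 19, 53384996 to 53450300, plus strand), a difference of -0.25. A second probe set of Mxi1 with 18 probes lies inside these bounds on the opposite strand, at 53446056 to 53446256, and had 5.39 in Oasl1-/- cells and 5.25 in wild-type cells. It was below the floor on both arrays and gives no support to either direction. Mxd3, known from dividing cells, was below the floor on both arrays, at 5.81 in Oasl1-/- cells and 6.31 in wild-type cells (26 probes, chromosome 13, 55426529 to 55431106, minus strand). Mxd4 and Mxi1 were under the floor of 7 in Oasl1-/- cells, and with those signals set to 7 their differences were -0.17 and -0.24.

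Mnt, a broadly expressed antagonist of Myc, is measured by 95 probes at chromosome 11, 74644426 to 74659213, on the plus strand. Its signal was 7.12 in Oasl1-/- cells and 7.38 in wild-type cells, a difference of -0.27. Mga is measured by 28 probes at chromosome 2, 119723041 to 119790701, on the plus strand. Its signal was 7.94 in Oasl1-/- cells and 8.12 in wild-type cells, a difference of -0.18. Both differences were smaller than the SD of 0.39 over all genes past the floor. That SD holds real and technical differences alike and is no replicate error. Mnt, Mga, Max, Mxd1 and Mxi1 all lay within the central 95% of genes of like signal, taken in steps of 1 of mean signal. Mxd4 did too, but its step, a mean signal of 6 to 7, cannot show whether its difference was usual. Genes in that step passed the floor through 1 array alone, so each of them had to differ. Their SD was 0.51, against 0.39 over all genes past the floor.

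**Figure D2:**
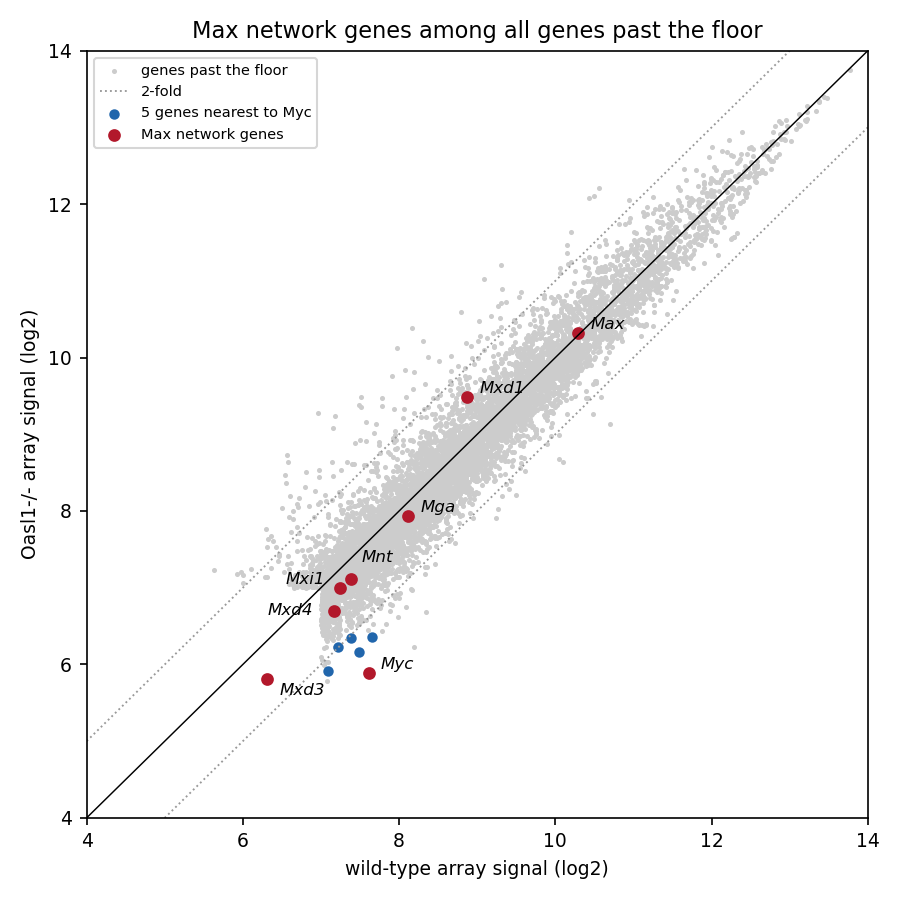
Signal on the Oasl1-/- array (vertical, log2) against that on the wild-type array (horizontal, log2) for the 7835 genes past the floor (light grey), with the 8 Max network genes in red and the 5 genes nearest to Myc in blue. The solid line is equality and the dotted lines are 2-fold. Max lies on the line, Mxd1 above it, and Myc below the lower dotted line. The empty corner at lower left is set by the floor.

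The direction of each member was the same on the 5 scales, but the size was not. Myc differed by -1.64 relative to the median gene, -1.39 once a loess curve of difference against signal was subtracted, -1.68 after quantile normalization and -1.32 with a pseudocount of 32 on the linear scale. Mxd1 ranged from 0.59 with the pseudocount to 0.71 after centring. Max ranged from 0.02 as deposited and with the pseudocount to 0.11 after centring. After loess, Mxi1 was at -0.050, Mga at -0.049, Mxd3 at -0.022, Mnt at -0.10 and Mxd4 at -0.21.

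**Figure D3:**
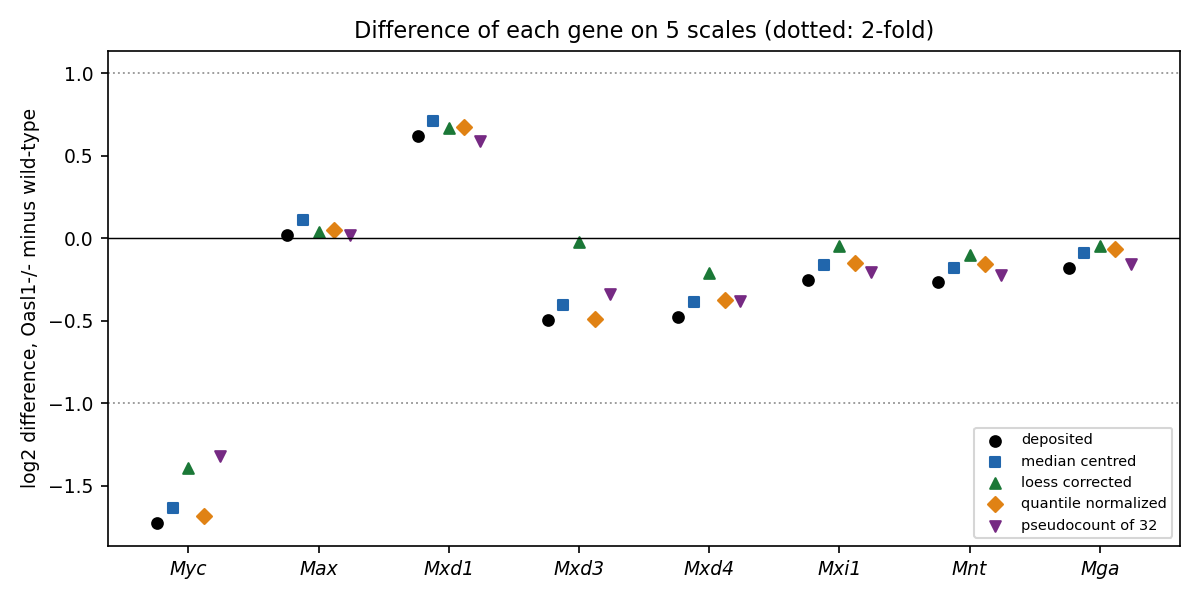
Log2 difference, Oasl1-/- minus wild-type (vertical axis), of each of the 8 genes on 5 scales, 1 value per scale and no error bars, with dotted lines at 2-fold. Myc stays below the lower line on all 5, between -1.73 and -1.32, and Mxd1 stays between 0.59 and 0.71.

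The paralogs of Myc were dim on both arrays, and the related Mlx arm was near level. Mycn and Mycl1, paralogs of Myc, were below the floor on both arrays, Mycn at 5.57 in Oasl1-/- cells and 5.00 in wild-type cells, and Mycl1 at 5.91 in Oasl1-/- cells and 5.87 in wild-type cells. Mlx is the Max-like partner of the glucose-sensing factors encoded by Mlxip and Mlxipl. Mlx had a signal of 8.95 in Oasl1-/- cells and 9.08 in wild-type cells, a difference of -0.13. Mlxip had 7.84 in Oasl1-/- cells and 7.75 in wild-type cells, a difference of 0.09. Mlxipl was below the floor, at 5.45 in Oasl1-/- cells and 5.17 in wild-type cells.

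Gene lists around Myc were read next, and for some of their genes the brightest probe set lies on another chromosome than the gene. That was so for 15 of the 206 members and listed genes on the array, and for 0 of the 8 members, going by the chromosome that RefSeq (GRCm38.p6) gives for the gene. Which copy of the gene such a probe set reads was not tested. All 15 also have a probe set on the chromosome of the gene, which had a difference of the same sign in each, and its values are given below for the named ones. With these probe sets in place of the others no list median moved by over 0.1. As the background for the lists, 60.6% of all genes past the floor were lower by some amount. At 1.5-fold 6.28% of all genes were lower and 5.27% higher.

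Cofactors that Myc and the Mxd proteins recruit were near the median gene. Of 22 listed genes 21 were past the floor, with a median of -0.12. Of these 16 were lower (76.2%, against 60.6% of all genes past the floor) and 5 higher, and 0 were at least 1.5-fold different in either direction. Wdr5, a chromatin scaffold that anchors Myc, differed by -0.48, with 7.88 in Oasl1-/- cells and 8.36 in wild-type cells. The acetyltransferase gene Kat2a differed by -0.45 and the helicase gene Ruvbl2 by -0.44. Hdac1, the histone deacetylase of the Sin3 complex and the brightest of the list, had 10.86 in Oasl1-/- cells and 10.60 in wild-type cells, a difference of 0.26.

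Genes that act on the stability of the Myc protein or its activity had a median of -0.25 over 14 of 18 past the floor. Of these 11 were lower (78.6%, against 60.6% of all genes past the floor) and 3 higher. Pim1, a kinase gene induced by cytokines whose product stabilises Myc, was 1.57-fold higher, at 10.30 in Oasl1-/- cells and 9.65 in wild-type cells. It was the 1 gene of this list past 1.5-fold. Ppp2r5a, a subunit of the phosphatase that primes Myc for degradation, differed by 0.29 on a probe set on chromosome 4, and by 0.39 on chromosome 1, where the gene lies. Bin1, which encodes an inhibitor of Myc, differed by -0.48, and the ubiquitin ligase gene Stub1 by -0.42.

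Among genes for proteins that bind Myc mRNA, 17 of 19 were past the floor, with a median of -0.12, near the -0.09 of all genes past the floor. Of these 14 were lower (82.4%, against 60.6% of all genes past the floor) and 3 higher. Zfp36, whose product speeds the decay of AU-rich mRNAs, was 1.58-fold higher, at 8.15 in Oasl1-/- cells and 7.49 in wild-type cells, and was the 1 member past 1.5-fold. Igf2bp2 differed by 0.41 and Ybx1 by -0.41 on a probe set on chromosome 6, and by -0.36 on chromosome 4, where the gene lies. Hnrnpk, the brightest of them, had 12.05 in Oasl1-/- cells and 12.17 in wild-type cells on a probe set on chromosome 7, a difference of -0.12. On chromosome 13, where the gene lies, its difference was -0.15.

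Regulators of Myc transcription had a median of -0.05 over 14 of 17 genes, which changed sign to 0.04 after centring. Of the 14 genes 9 were lower (64.3%, against 60.6% of all genes past the floor) and 5 higher. Foxm1, a factor of dividing cells, was 1.54-fold lower, with 6.93 in Oasl1-/- cells and 7.54 in wild-type cells, so it was under the floor in Oasl1-/- cells. Foxm1 was the 1 gene past 1.5-fold (7.14%, against 6.28% of all genes lower), and was under 1.5-fold after centring. Foxo3, a factor that opposes growth, differed by -0.56 and Cnbp by -0.41.

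Other factors that can bind E-boxes had a median of -0.20 over 13 genes past the floor, of 14 found in the table among 17 listed. Here 8 were lower (61.5%, against 60.6% of all genes past the floor) and 5 higher. Bhlhe41, a repressor of the circadian clock, was 1.64-fold lower, at 9.05 in Oasl1-/- cells and 9.76 in wild-type cells. Tcf12 was 1.53-fold lower, at 7.74 in Oasl1-/- cells and 8.35 in wild-type cells. These were the 2 genes past 1.5-fold (15.4%, against 6.28% of all genes lower), and 1 was left after centring, loess or quantile normalization. The sterol regulator gene Srebf2, the brightest, differed by -0.21, and Usf2 by -0.32.

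Most genes that Myc is known to activate had a lower signal in Oasl1-/- cells. Over 3 lists together 80 of 85 were past the floor, and 71 of them, or 88.8%, were lower by some amount, against 60.6% of all genes. At 1.5-fold 25 were lower (31.2%, against 6.28%) and 2 higher (against 5.27%). At 2-fold 6 were lower and 0 higher, against 0.651% and 1.57% of all genes past the floor. The median was -0.45, and -0.36 relative to the median gene, against which 67 were lower. Of the 6 genes at 2-fold, 5 were under the floor in Oasl1-/- cells. With signals below 7 set to 7, 3 were still 2-fold lower (Srm, Uck2 and Tyms), against 0.37% of all genes past the floor. The lists were written with earlier results known, and the differences of 4 of their genes (Dkc1, Uck2, Tyms and Eif5a) were among those results. Without these 4 the median was -0.42 and 3 genes (Srm, Mthfd1 and Ctps) were at least 2-fold lower, so the lists are not independent evidence. Of Srm, Mthfd1 and Ctps, only Srm was still 2-fold lower with signals below 7 set to 7. With 12 of the genes read on their own chromosome, 78 were past the floor and 69 lower, 24 of them at least 1.5-fold (against 6.13% of all genes read so) and 6 at least 2-fold, with a median of -0.44. A dim gene could pass the floor through its brighter array alone, which favours genes that differ, and the shares over all genes were taken under the same floor.

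The lowest of the 3 lists was that of nucleotide, one-carbon and polyamine synthesis, with a median of -0.57 over 20 genes past the floor. Of these 18 were lower (90%, against 60.6% of all genes past the floor) and 2 higher. Uck2, a uridine-cytidine kinase, had 6.23 in Oasl1-/- cells and 8.19 in wild-type cells, a difference of -1.96. Srm, the spermidine synthase, had 8.20 in Oasl1-/- cells and 9.50 in wild-type cells, a difference of -1.29, with both signals above the floor. Mthfd1, an enzyme of folate metabolism, had 6.69 in Oasl1-/- cells and 7.88 in wild-type cells, a difference of -1.19. Tyms had 6.98 in Oasl1-/- cells and 8.15 in wild-type cells, a difference of -1.17. Ctps, a CTP synthase, had 6.03 in Oasl1-/- cells and 7.06 in wild-type cells, where it barely passed the floor. With signals below 7 set to 7, Uck2 was 2.29-fold and Tyms 2.22-fold lower, while Mthfd1 was 1.84-fold and Ctps 1.05-fold lower. Paics, the brightest of the list and an enzyme of purine synthesis, differed by -0.34. Phgdh, the first enzyme of serine synthesis, went the other way, with 7.58 in Oasl1-/- cells and 6.98 in wild-type cells, a difference of 0.60. Its wild-type signal was under the floor, and with that signal set to 7 the difference was 0.58. Phgdh was named after its value was seen.

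Nucleolar genes had a median of -0.48 over 26 past the floor. Of these 25 were lower (96.2%, against 60.6% of all genes past the floor) and 12 at least 1.5-fold lower (46.2%, against 6.28%). Dkc1, the pseudouridine synthase of ribosomal RNA, had 6.44 in Oasl1-/- cells and 7.78 in wild-type cells, a difference of -1.34. Gnl3, which encodes nucleostemin, had 6.58 in Oasl1-/- cells and 7.57 in wild-type cells, a difference of -0.99. Both were under the floor in Oasl1-/- cells, and at the floor they were 1.72-fold and 1.48-fold lower. Nop16 had 8.98 in Oasl1-/- cells and 9.94 in wild-type cells, a difference of -0.96, with both signals above the floor. Npm1, nucleophosmin, the brightest of the list, differed by -0.33 on a probe set on chromosome 10. On chromosome 11, where the gene lies, it had 8.78 in Oasl1-/- cells and 9.43 in wild-type cells, a difference of -0.65 or 1.56-fold lower. The 1 gene that was higher was Wdr43, named after its value was seen, at 0.28.

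Growth and cell cycle targets had the smallest shift, a median of -0.36 over 34 genes past the floor. Of these 28 were lower (82.4%, against 60.6% of all genes past the floor) and 6 higher. At 1.5-fold 4 were lower (11.8%, against 6.28%), and none at 2-fold. The count at 1.5-fold was 2 after centring and 3 after loess or quantile normalization. The DNA repair gene Apex1 was 1.72-fold lower, at 8.11 in Oasl1-/- cells and 8.89 in wild-type cells. Hspe1, a mitochondrial co-chaperonin, was 1.66-fold lower, at 10.42 in Oasl1-/- cells and 11.16 in wild-type cells, on a probe set on chromosome 18. On chromosome 1, where the gene lies, it was 1.58-fold lower, at 10.39 in Oasl1-/- cells and 11.05 in wild-type cells. Ccnd2, cyclin D2, stood opposite, 1.67-fold higher, with 11.16 in Oasl1-/- cells and 10.42 in wild-type cells. Eif4a1, the brightest, differed by -0.21 on a probe set on chromosome 19 and by -0.26 on chromosome 11, where the gene lies. All 4 measured markers of dividing cells, Mki67, Top2a, Ccnb1 and Cdk1, were lower in Oasl1-/- cells, by differences of -0.60 to -0.24 (to -0.27 with the probe set of Ccnb1 on its own chromosome), beside the lower Myc-activated genes. Their part in these list values was not tested.

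**Figure D4:**
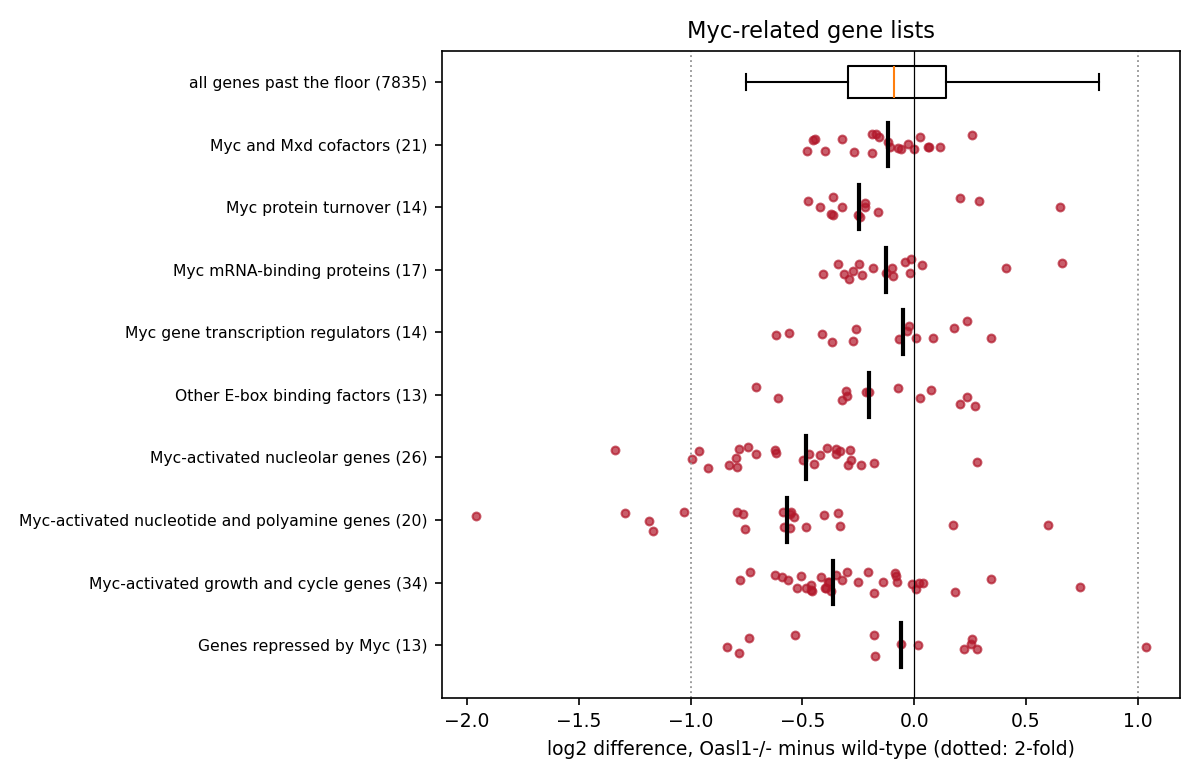
Log2 difference, Oasl1-/- minus wild-type (horizontal axis), of each gene past the floor (red points, jittered vertically) in 9 Myc-related lists, with the list median as a black bar and the number of genes in brackets. The box at the top gives the median, quartiles and, as whiskers, the central 95% of the 7835 genes past the floor. The 3 lists of Myc-activated genes have medians between -0.57 and -0.36, and the list of genes repressed by Myc has its median at -0.06.

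Genes that Myc is known to repress were lower by any amount about as often as all genes were, but not at 1.5-fold. Of 19 listed genes 13 were past the floor, with a median of -0.06 that turned to 0.03 after centring. Of these 7 were lower (53.8%, against 60.6% of all genes past the floor) and 6 higher. At 1.5-fold 3 were lower (23.1%, against 6.28% of all genes) and 1 higher (against 5.27%), so a larger share than of all genes was lower by that measure. The stress gene Gadd45g was 2.05-fold higher, at 9.47 in Oasl1-/- cells and 8.44 in wild-type cells. Cebpa, a myeloid differentiation factor, was 1.79-fold lower, at 6.79 in Oasl1-/- cells and 7.63 in wild-type cells. It was under the floor in Oasl1-/- cells, and with that signal set to 7 it was 1.54-fold lower. The cell cycle inhibitor gene Cdkn2c was 1.72-fold lower, at 7.21 in Oasl1-/- cells and 7.998 in wild-type cells. Txnip, a brake on glucose uptake and the brightest of the list, differed by -0.06. Cdkn1a, which encodes p21 and is the classic gene that Myc represses, was level at 11.04 in Oasl1-/- cells and 11.02 in wild-type cells, and was named after its value was seen.

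The E-box motif of the sequences above was also searched in the promoter windows of the Myc-activated genes. Of the 66 activated genes past the floor with a window, 21 held the motif (31.8%), against 13.1% of the 6152 genes past the floor with a window. The 21 genes with the motif had a median difference of -0.46 and the 45 without it one of -0.47, with the 3 lists in unequal proportion among them and unlike in direction. In the nucleolar list the 4 genes with the motif had a median of -0.31, against -0.62 for the 17 without it. In the nucleotide list the 5 with it had a median of -0.76, against -0.55 for the 13 without it. The growth and cell cycle list held 12 of the 21 genes with the motif, with a median of -0.43, against -0.32 for its 15 genes without it. Over all genes past the floor the medians were -0.12 for the 805 genes with the motif and -0.09 for those without, and 7.20% and 6.06% of them were at least 1.5-fold lower. A gene with no match in this window may have a site elsewhere.

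Genes whose pair of signals lay nearest to that of Myc, by the straight-line distance over both log2 signals, included Klhl6, Elovl6, Lactb2 and Slc40a1. Klhl6 was the nearest at a distance of 0.30, with 6.16 in Oasl1-/- cells and 7.49 in wild-type cells, a difference of -1.33. Elovl6, a fatty acid elongase, had 6.35 in Oasl1-/- cells and 7.66 in wild-type cells, and Slc40a1, the iron exporter ferroportin, had 5.91 in Oasl1-/- cells and 7.09 in wild-type cells. Lactb2 differed by -1.04. The likeness rests on only 2 arrays, and each of these genes was under the floor in Oasl1-/- cells.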

How the data were processed

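Polysomal RNA of 1 Oasl1-/- and 1 wild-type macrophage culture was measured on Affymetrix Mouse Gene 1.0 ST arrays. The authors' deposited table holds a log2 signal per array for each of 35556 probe sets. RMA and GCOS are the tools given in the submitters' processing notes. The series design text names Expression Console 1.1 and the R package affy 2.9.2 for the comparison. The log2 ratio that the authors deposited was checked to be Oasl1-/- minus wild-type in each row, within 1e-06. The fold change they deposited, a ratio on the linear scale, is unsigned and was not used. RMA gives both arrays nearly the same distribution, so a shift shared by all genes would be largely removed.

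Genes were taken from the annotation column, 1 probe set per gene by the highest mean signal, and checked against the chromosome RefSeq gives. Differences, counts past 1.5-fold and 2-fold and list medians were computed with Python 3.11.15, pandas 2.3.3 and statsmodels 0.14.6 (loess span 0.3). The steps were tested on simulated data, with differences planted only in genes with a mean signal of at least 8. Genes as dim as Myc were therefore not covered by that test. Precision is limited by having 1 array per genotype.

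The family, the gene lists and the naming rule were chosen with earlier results of these data known. Named genes were all members and their paralogs, in each list the 3 largest absolute differences, the brightest gene and every gene at 2-fold, the 5 genes nearest to Myc, and Oasl1. One gene that this rule takes is not reported here. Symbols are printed as the array annotation spells them. Alternatives were rescaling by centring, loess and quantile normalization, a pseudocount of 32, floors of 6 and 8, and the mean of all probe sets of a gene.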

Additional observations from a re-analysis of the deposited data

How the results depend on the processing

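No paired analysis was possible because there was 1 array per genotype. With no replicates, a value was taken as moved when it shifted by more than 0.1 on the log2 scale or, for a count, by more than 1.5 times. Of 252 values under alternatives 37 moved so. All 48 differences of the 8 genes under an alternative kept their sign or, for Mxd3 at the floor, were 0. Of 93 list medians 8 changed sign, in the lists of paralogs with the Mlx arm, regulators of Myc transcription, genes repressed by Myc and, at a floor of 8, other E-box binding factors.

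Loess moved Myc to -1.39, Mxd3 to -0.022, Mxd4 to -0.21, Mxi1 to -0.050, Mnt to -0.10 and Mga to -0.049, and the median of other E-box binding factors to -0.065. Quantile normalization moved Mxd4 to -0.37, Mxi1 to -0.15, Mnt to -0.15 and Mga to -0.065. The pseudocount of 32 moved Myc to -1.32 and Mxd3 to -0.34. The mean of both probe sets moved Mxi1 to -0.059. Setting signals below 7 to 7, chosen after seeing the data, moved Myc to -0.61, Mxd3 to 0 and Mxd4 to -0.17 and left 0 members at least 2-fold lower. A floor of 8 also left 0, since it drops Myc. At 1.5-fold 1 member was higher.

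A floor of 8, which tests fewer genes, moved the medians of the paralogs with the Mlx arm to -0.13, of other E-box binding factors to 0.025 and of genes repressed by Myc to 0.12. It left 5 nucleolar genes and 1 repressed gene at least 1.5-fold lower. Among regulators of Myc transcription the count at 1.5-fold lower was 0 after centring, loess or quantile normalization, with the pseudocount, with signals set to 7 and at a floor of 8, and 2 at a floor of 6. Among other E-box binding factors it was 1 after centring, loess or quantile normalization and with the pseudocount. Centring left 2 growth and cycle genes at least 1.5-fold lower. Leaving out the 4 genes known from earlier results, or taking probe sets on the chromosome of the gene, both chosen after seeing the data, moved no list median by over 0.1. Where no construction is named, the cause was not tested.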
